A study of Homo sapiens and Mus musculus with 22 samples.

Results

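The BCL2 family decides whether the outer membrane of the mitochondrion stays closed or is opened to start apoptosis. Expression of 10 of its genes was followed in small cell lung cancer (SCLC) lines and sorted fractions with high or low MHC class I, through which cells show peptides to cytotoxic T cells. They were BCL2, BCL2L1 and MCL1, which protect cells, and BAX, BAK1, BID, BCL2L11, PMAIP1, BBC3 and HRK, which promote death. The genes were chosen by symbol, with their differences in these same count tables already known, so their values are given as a description without p-values. All 10 were listed in each of the 3 count tables, of 25435, 20113 and 24047 genes, and all 10 passed the filter on low counts in each.

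RNA was sequenced after exome capture from 22 libraries in 8 groups. H69M, labelled MHC class I high, is a derivative of the human SCLC line NCI-H69 (H69), labelled low or negative, and both were sequenced unsorted (n = 3 each). H69M was also sorted into a fraction high for PD-L1, an immune checkpoint ligand, which is labelled MHC class I high, and a fraction low for PD-L1, labelled MHC class I low or negative (n = 3 each). H69EZ came from H69 after exposure for 6 days to an EZH2 inhibitor, later culture without it and selection of adherent cells, and both its fractions, HLA-ABC high and HLA-ABC low, share that history (n = 2 each). RPP-A, labelled MHC class I high, is an adherent mouse line selected from RPP, a mouse SCLC line labelled low or negative (n = 3 each). The labels do not give the genotype of RPP, nor say if replicates came from separate cultures. The p-values and errors therefore measure only how far these samples differ among themselves, in part perhaps for technical reasons. Each derivative is 1 line, and its selection history cannot be told apart from its MHC class I state.

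The protecting proteins hold their partners in check by binding the BH3 helix of the killing proteins. BAX and BAK1 form the pore itself, and the BH3-only proteins BID, BCL2L11 (BIM), PMAIP1 (NOXA), BBC3 (PUMA) and HRK (harakiri) act upstream of them. SCLC cells are known for high BCL2, the target of the drug venetoclax, and HRK is best known from dying neurons.

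HRK and BBC3 had the 2 largest falls of all members in H69M relative to H69 and, high against low, in the PD-L1 and HLA sorts. In PD-L1 high cells relative to H69, BCL2 (log2 difference -1.81) fell further than BBC3 (-1.63). The 250 bases before the start of HRK and BBC3 are shown, from RefSeq on GRCh38.p14, minus strand for both, at chr12:116881442-116881691 for HRK and chr19:47232668-47232917 for BBC3. Capitals mark the matches to 3 motifs searched on both strands, TGATGNAA (the core of a C/EBP-ATF composite site), CACGTG (an E-box) and TGACGTCA (a cAMP response element), which share no match here.
HRK: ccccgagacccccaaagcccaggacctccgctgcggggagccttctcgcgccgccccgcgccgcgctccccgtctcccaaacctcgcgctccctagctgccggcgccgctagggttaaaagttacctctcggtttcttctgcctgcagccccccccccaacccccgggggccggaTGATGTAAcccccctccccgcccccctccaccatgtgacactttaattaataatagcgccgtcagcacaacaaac
BBC3: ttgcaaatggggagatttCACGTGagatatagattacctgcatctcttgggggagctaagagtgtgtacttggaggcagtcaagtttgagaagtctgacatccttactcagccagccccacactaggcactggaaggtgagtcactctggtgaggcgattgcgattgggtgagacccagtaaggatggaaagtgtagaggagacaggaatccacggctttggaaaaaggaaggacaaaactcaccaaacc
The HRK window held 1 TGATGNAA match, 75 bases before the start, and the BBC3 window held 1 CACGTG match, 232 bases before it. Among 35116 RefSeq promoter windows of the same length, 3.14% held TGATGNAA, 6.34% held CACGTG and 1.65% held TGACGTCA. The HRK window had 22 CpG pairs and the BBC3 window 4, against a median of 11 over all windows. Of the 9 members with a window, BAX had 4 CACGTG matches and BID had 1 in each of 2 of its windows, and no other motif match was found in these letters.

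Library totals ran from 10817795 to 52458228 counts. Levels are CPM, read counts over the TMM-adjusted library total, and the 3 tables were normalised separately. Markers matched the labels of the human groups. Summed over 4 non-neuroendocrine markers (VIM, AXL, YAP1, REST), the level was 2096 to 2194 CPM in PD-L1 high cells, against 22.2 to 41.2 CPM in PD-L1 low cells, and 1202 to 1208 CPM in HLA high cells, against 0.514 to 0.975 CPM in HLA low cells. Summed neuroendocrine markers ran the other way in both sorts, and H69M, at 2714 to 2798 CPM, kept most of the neuroendocrine level of H69, at 2776 to 2953 CPM. In mouse, B2m averaged 2071 CPM in RPP-A and 68.3 CPM in RPP, while Cd274, the PD-L1 gene, averaged 4.96 CPM in RPP-A and 31.5 CPM in RPP. The leukocyte marker CD3E had no count in any group. Summed over 5 leukocyte markers, the level was 7.78 to 9.13 CPM in PD-L1 high cells, against 1.72 to 2.48 CPM in PD-L1 low cells, with CD68 at 6.36 CPM in PD-L1 high cells and 0.410 CPM in PD-L1 low cells. In mouse, Cd14 stood at 32.2 CPM in RPP-A, against 0.307 CPM in RPP, while Ptprc had no count in RPP-A. Endothelial markers summed to at most 3.39 CPM in the human groups, but mouse Vwf averaged 1.29 CPM in RPP-A and 41.5 CPM in RPP. The part of these markers in the results was not tested. The RPP library named EHK_RPP4 and the RPP-A library named RPPM3 stood apart from the others of their groups, with 29.7 to 39.3 for the chi-square over its degrees of freedom against them, compared with 1.35 to 10.9 for all other replicate pairs.

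In each comparison the members are read against all tested genes, of which most also differed. A gene is called when its adjusted p in edgeR's quasi-likelihood test over all genes is under 0.05. Differences are log2 fold changes ± SE from that fit, and mean levels carry the SD. In H69M, 1 member was higher than in H69, 8 were lower and 1 was not called, against 35.9% of all genes called higher and 36.6% lower (72.5% in all). In the PD-L1 sort, 3 were higher and 7 lower in PD-L1 high cells, against 39% and 39.4% of all genes (78.3%). In the HLA sort, 3 were higher and 6 lower in HLA high cells, against 41.1% and 40.2% (81.3%). Mitochondrial genes took 2.49% and 2.44% of the counts in HLA high cells, against 4.90% and 5.16% in HLA low cells, and the part of this in the HLA differences was not tested. In RPP-A, 3 were higher and 4 lower than in RPP, against 37.6% and 40.6% (78.2%). The libraries of both groups did not overlap for 9, 10, 9 and 9 of the 10 members in these comparisons, against 72.9%, 80.1%, 90.2% and 82.3% of all genes. With library totals in place of TMM, 35.2% of the mouse calls were higher in RPP-A, against 48.1% with TMM.

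Over the 4 comparisons of MHC class I high with low cells, which share no library, 4 members had the same call in each. MCL1 was higher each time, and PMAIP1, BBC3 and HRK were lower each time. Of the 11213 genes tested in all 4, 10.9% were higher in each and 6.65% lower in each. The median log2 difference of the members was -0.44 in H69M, -0.27 in PD-L1 high cells, -0.44 in HLA high cells and 0.02 in RPP-A, against -0.01, -0.00, 0.00 and -0.04 over all tested genes. By role, the 5 BH3-only genes were lower in 5, 5, 4 and 3 cases, while the 3 protecting genes were higher in 1, 1, 2 and 1 cases and lower in 2, 2, 1 and 1. The roles did not move as blocks: each comparison held a protecting member that was lower, and in both sorts and in RPP-A an effector was higher.

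**Figure D1:**
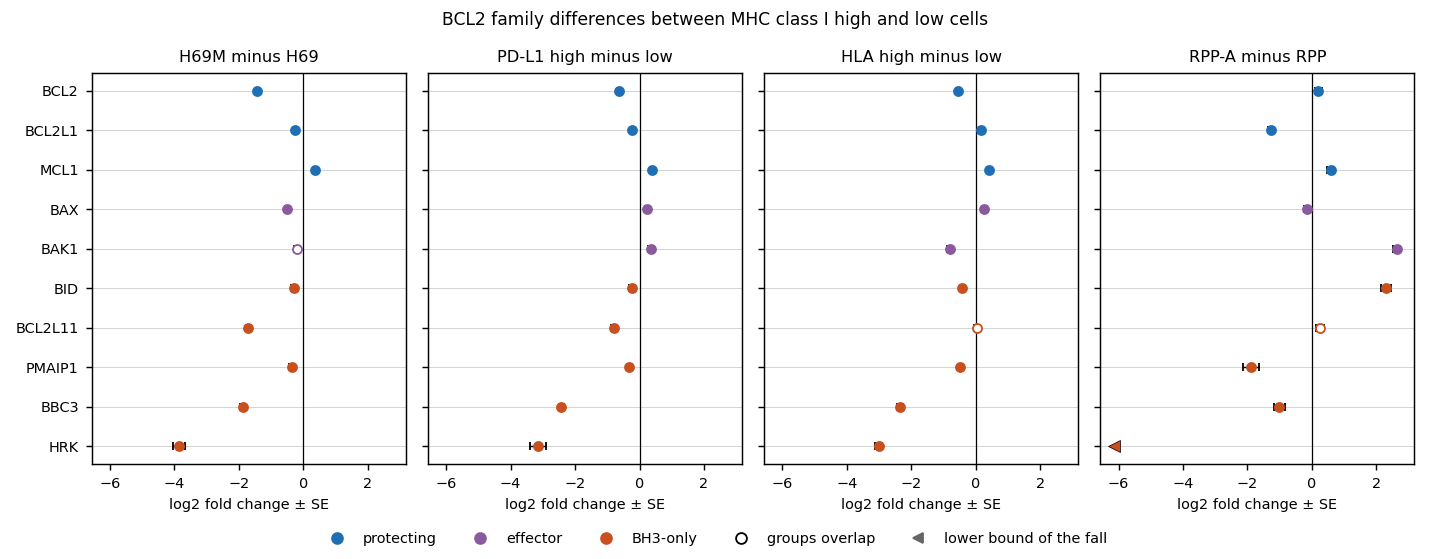
Log2 fold change ± SE (edgeR fit over all genes) of the 10 members in 4 comparisons of MHC class I high with low cells, coloured by role; open points have overlapping groups and the triangle is the smallest fall that 0 counts allow. HRK lies farthest left in each panel (-3.85, -3.16, -3.01 and at least 69.9-fold lower), and BAK1 and BID lie far right only in RPP-A (2.63 and 2.31).

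Among the protecting genes, BCL2 had the widest range in the human lines as a ratio of highest to lowest level. It stood at 36.1, 36.9 and 38.0 CPM in PD-L1 high cells, 56.2, 57.8 and 58.9 in PD-L1 low cells, 46.9, 47.9 and 48.2 in H69M and 125, 131 and 131 in H69. No group of this table overlapped another. BCL2 was 2.71-fold lower in H69M than in H69 (log2 difference -1.44 ± 0.05). Within H69M, BCL2 was lower in the PD-L1 high than in the PD-L1 low fraction (-0.64 ± 0.05), with unsorted H69M between them. In the HLA sort it was 32.6 and 35.6 CPM in HLA high cells, against 49.6 and 49.9 CPM in HLA low cells (-0.55 ± 0.07). Mouse Bcl2 did not share this: it was 32.3, 32.9 and 36.7 CPM in RPP-A, against 26.0, 31.1 and 31.7 CPM in RPP, a difference of 0.20 ± 0.11 that was not called and turned to -0.17 with library totals.

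MCL1, a short-lived protein that holds BAK1 and PMAIP1, was the protecting gene that was higher in every MHC class I high group. It stood at 405, 406 and 434 CPM in PD-L1 high cells, against 307, 320 and 330 CPM in PD-L1 low cells (0.38 ± 0.06). It stood at 371, 412 and 415 CPM in H69M, against 289, 321 and 330 CPM in H69 (0.35 ± 0.06). PD-L1 low cells overlapped H69 (0.03 ± 0.06), while unsorted H69M overlapped its PD-L1 high fraction and lay above its PD-L1 low fraction. HLA high cells had 464 and 492 CPM, against 351 and 368 CPM in HLA low cells (0.41 ± 0.06). Mouse Mcl1 was 135, 136 and 140 CPM in RPP-A, against 76.8, 98.7 and 99.0 CPM in RPP (0.58 ± 0.12), and with library totals the difference was 0.22 and not called. Each of these differences was under 2-fold.

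BCL2L1, the gene of BCL-XL, took different directions. It averaged 114 ± 1.43 CPM in PD-L1 high cells, 133 ± 4.73 in PD-L1 low cells, 143 ± 1.58 in H69M and 169 ± 6.94 in H69 (SD, n = 3 each), a set of small steps with no overlap. In HLA high cells it was 88.1 and 93.6 CPM, against 79.5 and 83.1 CPM in HLA low cells (0.16 ± 0.07), a call lost with library totals (0.01) and without HLA low replicate 1 (0.19) or 2 (0.13). In mouse, Bcl2l1 was 46.1, 47.8 and 48.8 CPM in RPP-A, against 108, 117 and 123 CPM in RPP (-1.28 ± 0.09). The mouse step was larger in size than the human ones, a difference that was not tested. BCL2L1 and MCL1 each also make a short form that promotes death, and counts per gene do not part the forms.

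**Figure D2:**
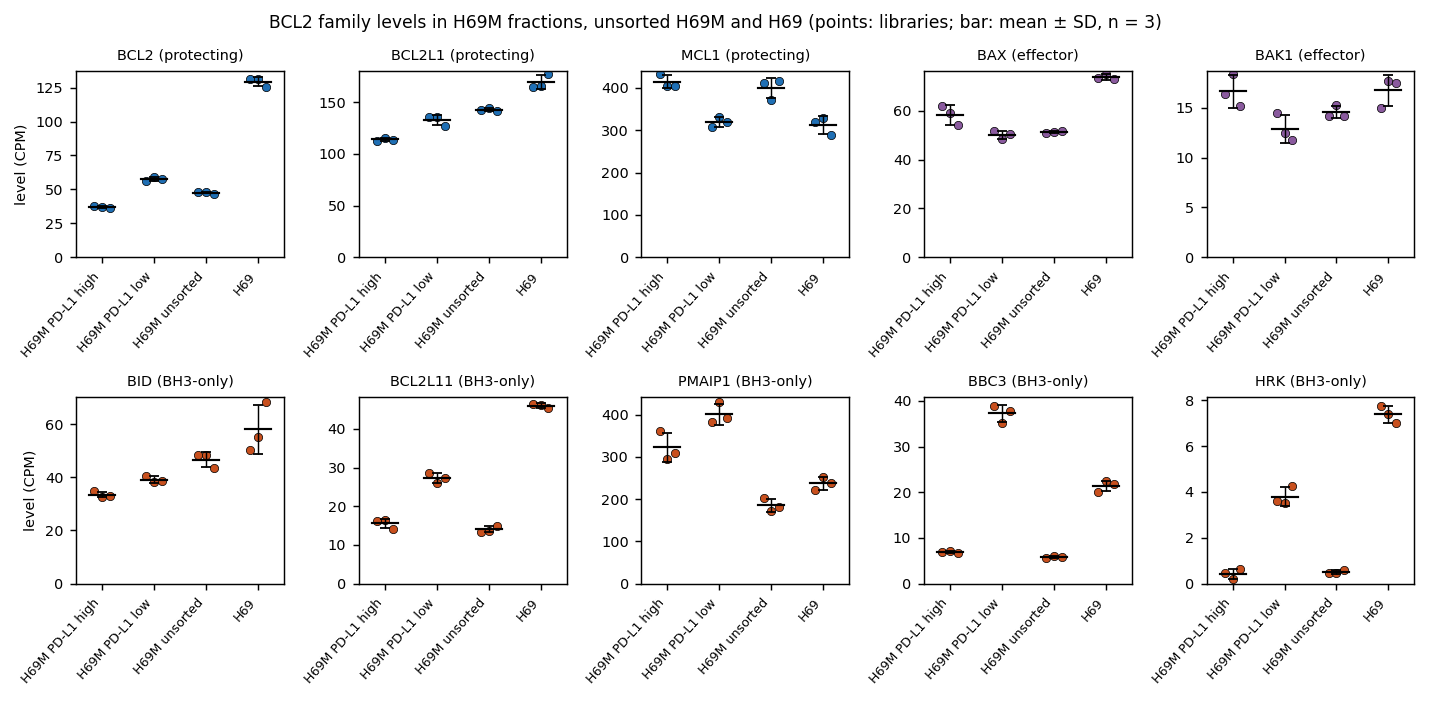
Levels in CPM of the 10 members in each library of PD-L1 high, PD-L1 low and unsorted H69M and of H69; the bar is the mean and the whisker the SD of 3 libraries. BCL2, BCL2L11 and HRK are highest in H69 (means 129, 46.0 and 7.40 CPM), while PMAIP1 and BBC3 are highest in PD-L1 low cells (400 and 37.3 CPM).

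The pore-forming effectors showed no shared direction. BAX was 54.0, 58.9 and 61.8 CPM in PD-L1 high cells, against 48.4, 50.3 and 51.5 CPM in PD-L1 low cells (0.22 ± 0.06), and both fractions lay below H69, at 72.8, 73.5 and 75.1 CPM. In the HLA sort BAX was 58.0 and 64.0 CPM in HLA high cells, against 50.2 and 51.3 CPM in HLA low cells (0.27 ± 0.07, or 0.25 and not called without HLA low replicate 2). With library totals neither sort gave a call for BAX (0.08 and 0.12). Mouse Bax was 54.1, 55.8 and 59.7 CPM in RPP-A, against 60.6, 64.5 and 64.7 CPM in RPP (-0.16 ± 0.08, not called, but -0.53 and called with library totals).

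BAK1 was the effector that varied most between lines. Mouse Bak1 was 140, 144 and 158 CPM in RPP-A, against 21.2, 24.5 and 25.7 CPM in RPP, which is 6.18-fold higher (2.63 ± 0.11). In the HLA sort the direction was the opposite, with 23.8 and 26.6 CPM in HLA high cells, against 43.7 and 45.0 CPM in HLA low cells (-0.81 ± 0.08). In the H69 table it was low throughout, at 15.1, 16.4 and 18.4 CPM in PD-L1 high cells and 11.8, 12.4 and 14.4 CPM in PD-L1 low cells (0.36 ± 0.10). H69M, at 14.2 to 15.2 CPM, overlapped H69, at 14.97 to 17.7 CPM (-0.20 and not called, but -0.28 and called without H69 replicate 1). The difference between lines was not tested.

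BID, which caspase-8 cleaves to its active form, was, like Bak1, far higher in RPP-A than in RPP. Mouse Bid was 51.9, 55.4 and 61.4 CPM in RPP-A, against 9.84, 10.3 and 13.9 CPM in RPP (2.31 ± 0.15, or 2.53 without EHK_RPP4). In the human lines BID was lower in each MHC class I high group, by smaller steps. It was 32.7, 33.1 and 34.7 CPM in PD-L1 high cells, against 38.1, 38.7 and 40.6 CPM in PD-L1 low cells (-0.22 ± 0.09, a call lost with DESeq2). It was 43.3, 48.3 and 48.4 CPM in H69M, against 50.4, 55.1 and 68.4 CPM in H69 (-0.30 ± 0.08). The highest H69 value was that of replicate 3, and without it the difference was -0.15. HLA high cells had 30.8 and 33.3 CPM, against 42.6 and 43.1 CPM in HLA low cells (-0.42 ± 0.07).

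BCL2L11, whose protein BIM binds all the main protecting members, was lower in H69M and its PD-L1 high fraction. It was 14.1, 16.2 and 16.3 CPM in PD-L1 high cells, 26.0, 27.4 and 28.6 in PD-L1 low cells, 13.4, 13.7 and 14.96 in H69M and 45.4, 46.1 and 46.5 in H69. H69M thus overlapped its PD-L1 high fraction and lay 3.28-fold below H69 (-1.71 ± 0.07), and the sort difference was -0.81 ± 0.08. The HLA fractions overlapped, at 14.8 and 17.5 CPM in HLA high cells and 15.5 and 16.1 CPM in HLA low cells (0.03 ± 0.09). Mouse Bcl2l11 also overlapped, at 66.4, 85.5 and 87.5 CPM in RPP-A and 64.4, 67.4 and 69.9 CPM in RPP (0.25 ± 0.12). Its RPP-A value nearest to RPP was that of RPPM3, and without that library the difference was 0.36 and called.

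PMAIP1, the gene of NOXA, a BH3-only protein that mainly binds MCL1, was lower in all 4 MHC class I high groups than in the low cells beside them. It was 295, 309 and 362 CPM in PD-L1 high cells, against 381, 391 and 429 CPM in PD-L1 low cells (-0.31 ± 0.07). It was 172, 181 and 202 CPM in H69M, against 221, 237 and 253 CPM in H69 (-0.36 ± 0.08). HLA high cells had 260 and 305 CPM, against 388 and 396 CPM in HLA low cells (-0.47 ± 0.06). In each of these human pairs the groups did not overlap, and the steps were small. Mouse Pmaip1 was far lower in level and in ratio, at 4.50, 5.08 and 5.74 CPM in RPP-A, against 14.98, 16.6 and 25.4 CPM in RPP (-1.89 ± 0.23). The highest RPP value was that of EHK_RPP4, and without that library the difference was -1.58.

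BBC3, the gene of PUMA, which is known to be induced by DNA damage, was 3.70-fold to 5.41-fold lower in the human MHC class I high groups than in their low counterparts. It was 6.61, 6.85 and 7.21 CPM in PD-L1 high cells, against 35.2, 37.8 and 38.9 CPM in PD-L1 low cells, or 5.41-fold lower in PD-L1 high cells (-2.43 ± 0.08). It was 5.57, 5.74 and 6.07 CPM in H69M, against 20.2, 21.7 and 22.4 CPM in H69 (-1.89 ± 0.08). HLA high cells had 8.31 and 9.23 CPM, against 44.0 and 45.9 CPM in HLA low cells (-2.35 ± 0.09). The 3 human MHC class I high groups thus lay between 5.57 and 9.23 CPM, and the low groups between 20.2 and 45.9. Mouse Bbc3 was 9.87, 11.2 and 12.1 CPM in RPP-A, against 19.3, 20.8 and 26.9 CPM in RPP (-1.01 ± 0.16, or -0.82 without EHK_RPP4).

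HRK had the largest difference of any member in each of the 4 comparisons. It was 0.214, 0.440 and 0.633 CPM in PD-L1 high cells, against 3.54, 3.59 and 4.27 CPM in PD-L1 low cells (-3.16 ± 0.25). It was 0.448, 0.449 and 0.612 CPM in H69M, against 7.02, 7.40 and 7.77 CPM in H69 (-3.85 ± 0.19). HLA high cells had 2.64 and 2.76 CPM, against 21.4 and 22.1 CPM in HLA low cells (-3.01 ± 0.11). The low values rest on few reads, 22 counts over the 3 PD-L1 high libraries and 35 over the 3 H69M libraries. In mouse, Hrk had 0 counts in each RPP-A library, against 49, 60 and 69 counts in the RPP libraries, or 3.996, 4.16 and 4.85 CPM. With a floor of 3 counts over the RPP-A group, Hrk was at least 69.9-fold lower in RPP-A. This bound covers counting error only.

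Over the 6 human groups the order of the HRK level ran from HLA low cells (21.8 CPM) through H69 (7.40), PD-L1 low cells (3.80), HLA high cells (2.70) and H69M (0.503) to PD-L1 high cells (0.429). H69M and PD-L1 high cells overlapped and every other neighbouring pair was apart. H69EZ was scaled apart from the rest, however, and its table lists 20113 genes, against 25435 in the H69 table. Mitochondrial genes took 2.44% to 5.16% of the counts in the H69EZ libraries and 0% in those of the H69 table. The part of such differences between the tables in this order was not tested. Of the tested genes, 1.18% had a log2 difference as low as or lower than HRK in H69M, 1.16% in the PD-L1 sort and 2.02% in the HLA sort. These are bulk libraries, in which fewer cells with HRK and less HRK per cell cannot be told apart.

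**Figure D3:**
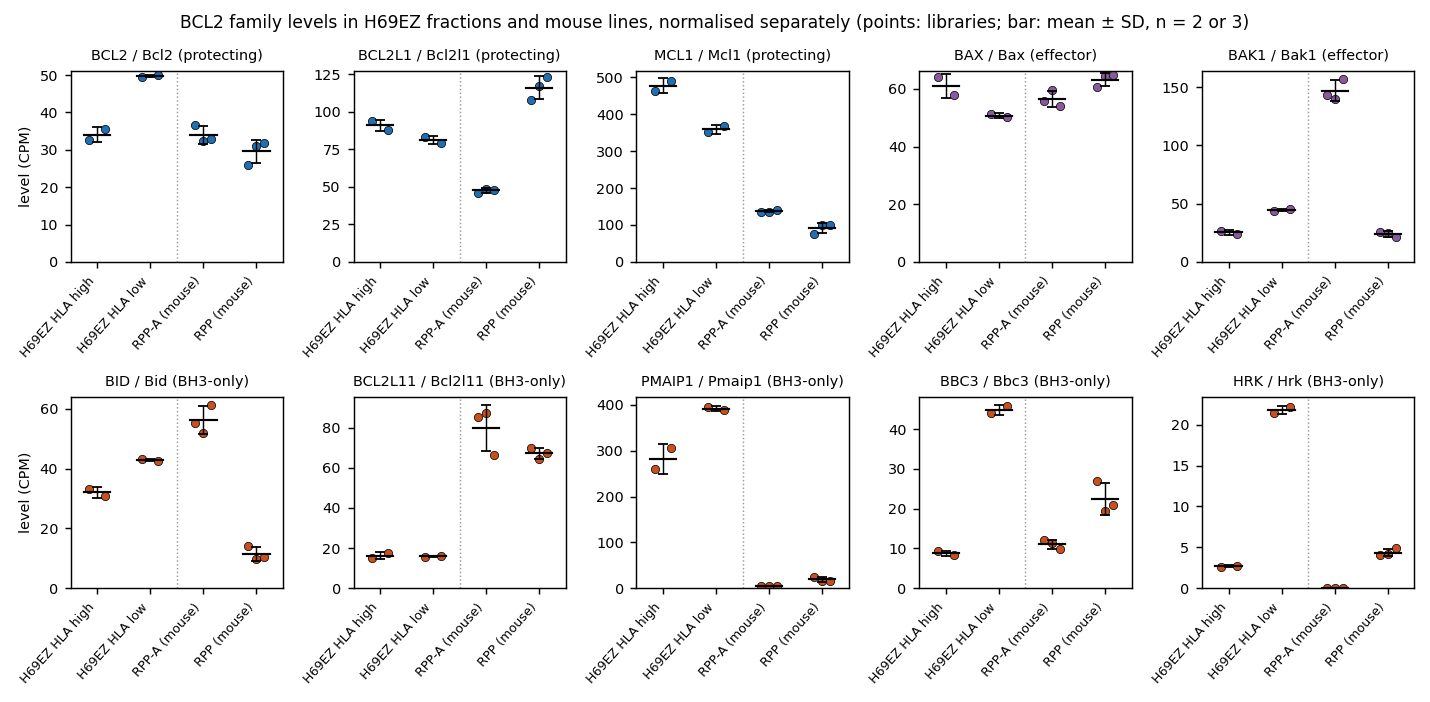
Levels in CPM of the 10 members in each library of the H69EZ fractions (left of the dotted line) and of the mouse lines (right); the bar is the mean and the whisker the SD of 2 or 3 libraries, and the tables were scaled apart. BBC3 and HRK are lower in HLA high cells than in HLA low cells and in RPP-A than in RPP, while Bak1 (147 CPM) and Bid (56.3 CPM) are high in RPP-A.

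The H69M fractions can each be set beside H69, with the same H69 libraries as control in both. PD-L1 low cells, labelled low for MHC class I like H69, had 2 members higher, 7 lower and 1 not called, against 39% of genes higher and 36.9% lower (75.9% in all, with 75.5% not overlapping). PD-L1 high cells also had 2 higher and 7 lower, against 38.1% and 39.5% (77.6%, with 77.9% not overlapping). BCL2 was -1.81 ± 0.05 in PD-L1 high cells and -1.17 ± 0.05 in PD-L1 low cells relative to H69. HRK was -4.15 ± 0.22 and -0.99 ± 0.14, and BCL2L11 -1.56 ± 0.07 and -0.75 ± 0.07, in the same order. BBC3 stood on either side of H69, at -1.63 ± 0.09 in PD-L1 high cells and 0.80 ± 0.07 in PD-L1 low cells. PMAIP1 was above H69 in both fractions (0.44 ± 0.08 and 0.76 ± 0.08), while unsorted H69M was below it.

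Unsorted H69M was not always between its own fractions. BCL2, MCL1, BAX, BAK1 and HRK lay between the fraction means, but of these only BCL2 did not overlap either fraction. BCL2L11 averaged 14.0 CPM in unsorted H69M, below the means of PD-L1 high cells (15.5 CPM) and PD-L1 low cells (27.3 CPM). It overlapped PD-L1 high cells. PMAIP1 averaged 322 CPM in PD-L1 high cells and 400 CPM in PD-L1 low cells, above the 185 CPM of unsorted H69M, and BBC3, at 5.79 CPM in unsorted H69M, was also below both fractions. BCL2L1 and BID were above both. ATF3, a stress-induced factor, averaged 9.72 CPM in PD-L1 high cells, 109 CPM in PD-L1 low cells and 15.6 CPM in unsorted H69M, beside these values. The part of the sorting procedure in the levels of sorted cells was not tested.

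Among 13 listed regulators of BH3-only genes, 8 fell and 4 rose in PD-L1 high cells and 10 fell and 3 rose in HLA high cells, with list medians of -1.18 and -0.95. In H69M 6 fell and 5 rose (median -0.08), and in RPP-A 6 fell and 5 rose (-0.45). ATF4 and DDIT3 (CHOP), factors of the integrated stress response that are known to act on PMAIP1 and BBC3, fell beside them in H69M and in both human sorts. In PD-L1 high cells relative to H69, however, PMAIP1 was higher (0.44) and BBC3 lower (-1.63). There ATF4 averaged 180 CPM, against 321 CPM in H69, and DDIT3 26.3 CPM, against 41.2 CPM in H69. ATF4 averaged 180 ± 5.62 CPM in PD-L1 high cells and 439 ± 8.52 CPM in PD-L1 low cells (log2 difference -1.29 ± 0.05, adjusted p = 6.20e-15, edgeR quasi-likelihood, n = 3 each). DDIT3 averaged 26.3 ± 2.87 CPM in PD-L1 high cells and 95.9 ± 4.04 CPM in PD-L1 low cells (-1.87 ± 0.07, adjusted p = 1.67e-15, edgeR). ATF3 showed the largest fall of the list there, -3.48 ± 0.07 (adjusted p = 1.78e-19, edgeR). In H69M, ATF4 fell by 0.74 and DDIT3 by 0.60 on the log2 scale relative to H69 (edgeR adjusted p = 8.15e-11 and 1.94e-07). ATF3 was not called there, at 15.6 ± 0.19 CPM in H69M and 16.4 ± 1.02 CPM in H69 (-0.08 ± 0.07, edgeR adjusted p = 0.339), beside the 3.70-fold lower BBC3. In HLA high cells ATF4 was -1.30 ± 0.06 and DDIT3 -1.85 ± 0.07 (edgeR adjusted p = 1.26e-97 and 1.67e-144, with the spread pooled across genes, since 2 libraries a group give little of their own).

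In mouse, Atf4 and Ddit3 went the other way from Bbc3 and Pmaip1, while Atf3 was lower as they were. Atf4 averaged 610 ± 42.3 CPM in RPP-A and 289 ± 83.9 CPM in RPP (1.08 ± 0.22, edgeR adjusted p = 0.00231), and Ddit3 averaged 73.8 ± 5.55 CPM in RPP-A and 23.6 ± 3.25 CPM in RPP (1.65 ± 0.12, edgeR adjusted p = 8.85e-06). Atf3 averaged 10.6 ± 2.26 CPM in RPP-A and 49.2 ± 37.4 CPM in RPP (-2.20 ± 0.50, edgeR adjusted p = 0.00433), and without EHK_RPP4 the difference was -1.33. The part of ATF4, DDIT3 and ATF3 in the levels of BBC3 and PMAIP1 was not tested.

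**Figure D4:**
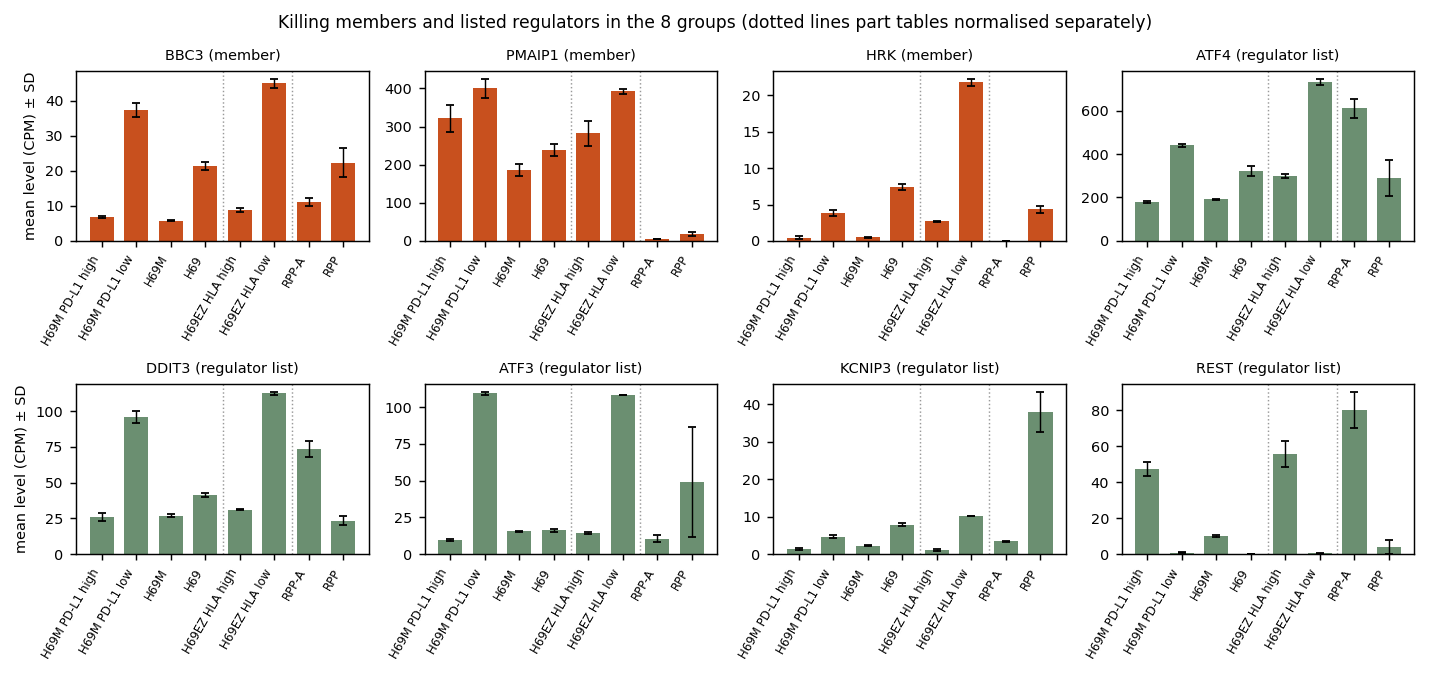
Mean level in CPM ± SD (n = 3, or 2 for H69EZ) of 3 killing members and 5 listed regulators in the 8 groups, with dotted lines between tables scaled apart. Among the human groups, BBC3 and ATF3 are both highest in PD-L1 low cells (37.3 and 109 CPM) and HLA low cells (44.9 and 108 CPM), while REST is highest in RPP-A, HLA high and PD-L1 high cells (80.1, 55.9 and 47.3 CPM).

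KCNIP3 (DREAM), a calcium-binding repressor known to act on HRK, fell beside HRK in all 4 comparisons. It averaged 1.45 ± 0.32 CPM in PD-L1 high cells and 4.70 ± 0.41 CPM in PD-L1 low cells (-1.65 ± 0.16, edgeR adjusted p = 1.34e-08). Its log2 difference was -1.77 ± 0.13 in H69M, -3.29 ± 0.15 in HLA high cells and -3.48 ± 0.15 in RPP-A (edgeR adjusted p = 1.70e-10, 5.30e-104 and 6.38e-07). REST, a repressor of neuronal genes, rose in all 4. It averaged 47.3 ± 3.85 CPM in PD-L1 high cells and 0.824 ± 0.294 CPM in PD-L1 low cells (5.91 ± 0.14, edgeR adjusted p = 1.90e-18), and 9.93 ± 0.55 CPM in H69M, against 1 count over the 3 H69 libraries. HLA high cells averaged 55.9 ± 7.25 CPM and HLA low cells 0.458 ± 0.173 CPM (SD, n = 2 each), and RPP-A averaged 80.1 ± 10.05 CPM and RPP 4.04 ± 3.85 CPM (4.35 ± 0.51, edgeR adjusted p = 0.000111). The part of REST and KCNIP3 in the HRK level was not tested.

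Among the other BCL2 family genes, 13 were listed, and 9, 9, 11 and 10 were tested in H69M, the PD-L1 sort, the HLA sort and RPP-A. Of these, 3, 4, 6 and 2 rose and 4, 4, 2 and 4 fell, with list medians of -0.19, 0.08, 0.17 and -0.16. BCL2L12 rose in all 4 (in RPP-A by 0.69, or 0.33 and not called with library totals), for example to 18.8 ± 1.35 CPM in PD-L1 high cells, against 8.23 ± 0.32 CPM in PD-L1 low cells (1.18 ± 0.09, edgeR adjusted p = 3.35e-10). It overlaps the antisense gene IRF3 in GENCODE 29, and whether the counting used strand is not given in the sources used here. BNIP3L, a mitophagy receptor, rose by 1.57 in H69M and by 1.42 in HLA high cells (edgeR adjusted p = 5.13e-11 and 1.01e-95), but fell by 0.53 in PD-L1 high cells (edgeR adjusted p = 5.68e-05) and was not called in RPP-A (-0.01 ± 0.16). BNIP3, its relative, fell by 1.57 in PD-L1 high cells (edgeR adjusted p = 5.32e-14). BMF, a BH3-only gene, rose in PD-L1 high cells (0.81 ± 0.08) and fell in H69M (-0.73 ± 0.08; edgeR adjusted p = 1.00e-08 and 1.48e-07). In mouse, Bik, a further BH3-only gene, fell to 0.509 ± 0.370 CPM in RPP-A, against 13.5 ± 0.540 CPM in RPP (-4.68 ± 0.38, edgeR adjusted p = 1.30e-05). BCL2A1, a protecting gene that the rule for named genes does not cover and that was chosen after its values were seen, had 0.300 ± 0.056 CPM in HLA high cells and no count in HLA low cells.

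**Figure D5:**
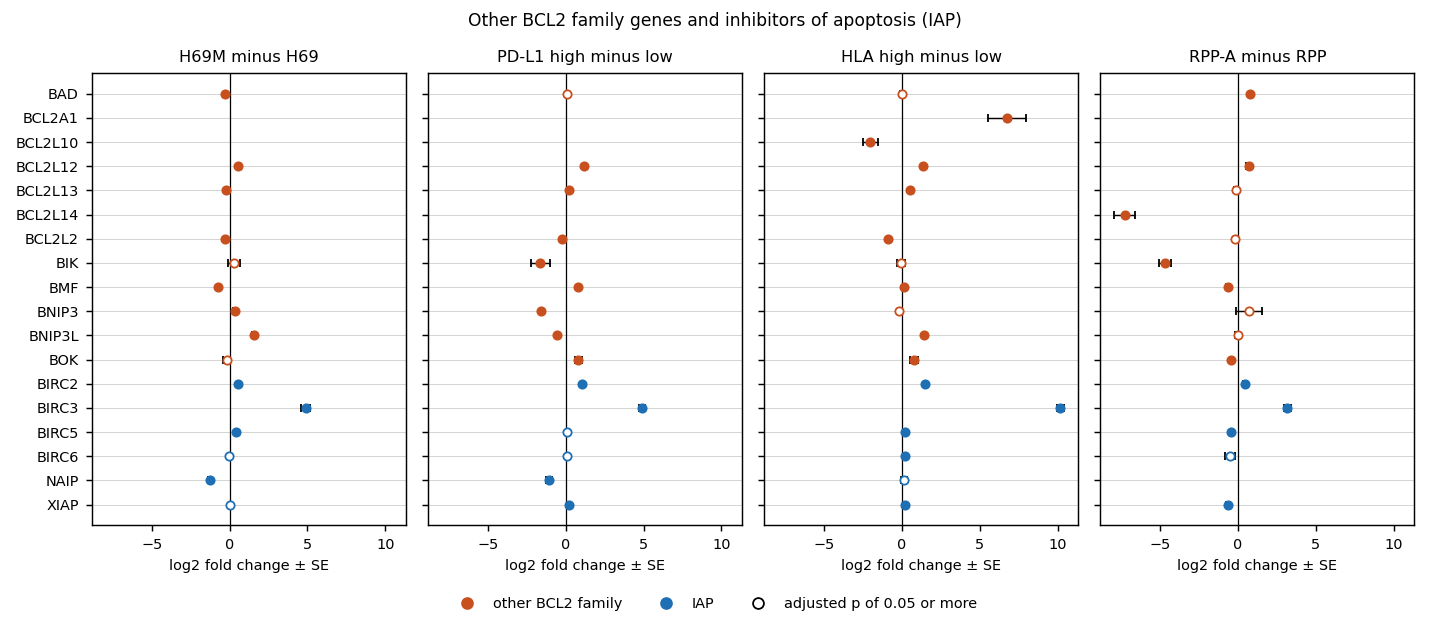
Log2 fold change ± SE of the other BCL2 family genes and the inhibitors of apoptosis in 4 comparisons, with open points at an adjusted p of 0.05 or more. BIRC3 lies to the right in each panel (4.90, 4.91, 10.17 and 3.17), and BCL2L12 is higher in each by 0.56 to 1.39. The size of the BIRC3 difference rests on few reads in the low cells, 2 counts over the HLA low libraries and 13 over the H69 libraries.

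Downstream of the mitochondrion, the inhibitors of apoptosis BIRC2 and BIRC3, which act on caspases and on NF-kB signalling, rose in all 4 comparisons, though mouse Birc2 (0.46 ± 0.14) was 0.09 and not called with library totals. BIRC3 averaged 17.3 ± 1.89 CPM in PD-L1 high cells and 0.590 ± 0.121 CPM in PD-L1 low cells (4.91 ± 0.20, edgeR adjusted p = 1.06e-14). In RPP-A it averaged 30.9 ± 5.75 CPM and in RPP 3.46 ± 1.04 CPM (3.17 ± 0.24, edgeR adjusted p = 8.59e-06). Of the tested genes of that list, 3 of 6, 3 of 6, 5 of 6 and 2 of 5 rose in H69M, PD-L1 high, HLA high and RPP-A cells, and 1, 1, 0 and 2 fell. Of 13 listed apoptosome and caspase genes, 7 rose in each human comparison and 4, 3 and 5 fell, and in RPP-A 5 rose and 5 fell of 12 tested. CASP8, which cleaves BID, rose to 11.3 ± 1.47 CPM in PD-L1 high cells, against 1.03 ± 0.14 CPM in PD-L1 low cells (3.46 ± 0.18, edgeR adjusted p = 3.57e-13). APAF1, the scaffold of the apoptosome, rose by 2.37 in HLA high cells and by 1.01 in H69M but fell by 0.48 in RPP-A on the log2 scale (edgeR adjusted p = 3.24e-188, 4.15e-10 and 0.00168).

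Of 15 listed genes known to be induced by DNA damage, 5 rose in each human comparison, and 7, 8 and 8 fell in H69M, PD-L1 high and HLA high cells, with medians of -0.20, -0.25 and -0.23. In RPP-A 4 rose and 7 fell of 14 tested (-0.28). CDKN1A (p21) fell to 146 ± 4.89 CPM in H69M, against 518 ± 17.8 CPM in H69 (-1.83 ± 0.05, edgeR adjusted p = 1.18e-16), and TNFRSF10B, a death receptor, rose to 58.1 ± 5.13 CPM in PD-L1 high cells, against 0.898 ± 0.552 CPM in PD-L1 low cells (6.15 ± 0.16, edgeR adjusted p = 4.69e-18). Of 4 partners in the outer membrane, the VDAC1, VDAC2 and VDAC3 channels and the BID receptor MTCH2, 3 fell in H69M (VDAC1 -0.48 ± 0.06, edgeR adjusted p = 3.81e-07) and 3 rose in HLA high cells (VDAC1 0.68 ± 0.06, edgeR adjusted p = 4.64e-27). In PD-L1 high cells and in RPP-A 2 rose and none fell, with MTCH2 (0.06) and Vdac2 (0.12) no longer called with library totals. Of 4 genes that control MCL1 protein turnover, 2, 0, 2 and 1 rose and 0, 1, 1 and 2 fell in H69M, PD-L1 high, HLA high and RPP-A cells. USP9X, which removes ubiquitin from MCL1, rose in H69M (0.67 ± 0.05, edgeR adjusted p = 5.54e-10) and in HLA high cells (0.43 ± 0.06, edgeR adjusted p = 2.67e-12). HUWE1, which marks MCL1 for breakdown, rose beside it in both. It averaged 488 CPM in HLA high cells and 246 CPM in HLA low cells. In H69M it rose by 0.24 with overlapping groups (edgeR adjusted p = 0.0164). In RPP-A Fbxw7 and Huwe1, which both mark MCL1 for breakdown, fell by 1.08 and 0.98 (edgeR adjusted p = 3.26e-05 and 0.0247). Without EHK_RPP4 the difference of Huwe1 was -0.75 and not called. Usp9x averaged 295 CPM in RPP-A and 376 CPM in RPP and was not called. Over all 7 lists, 25 of 64 tested genes rose and 25 fell in H69M and in PD-L1 high cells alike, 31 and 27 of 66 in HLA high cells, and 21 and 26 of 62 in RPP-A. Relative to H69, 29 rose and 21 fell in PD-L1 low cells, and 25 rose and 28 fell in PD-L1 high cells.

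By length, PMAIP1 and MCL1 had the highest levels of the 10 members in all 6 human groups, whether per kilobase of coding or of exon length (GENCODE 29, merged over transcripts, a different build from the hg19 of the counts). Per coding kilobase, PMAIP1 stood at 789 CPM in PD-L1 high cells, 981 in PD-L1 low cells, 454 in H69M and 581 in H69, and MCL1 at 391, 301, 377 and 295 in the same order. BCL2L1 ranked next on the coding scale in every group, at 116 to 242 CPM per kilobase. HRK came last per coding kilobase in PD-L1 high, PD-L1 low, H69M and HLA high cells (1.57, 13.9, 1.84 and 9.90 CPM), yet had rank 4 in HLA low cells, at 79.8. By exon length, HRK had only rank 9 of 10 in HLA low cells. The rank of BCL2 also rests on the length used, 4 of 10 in H69 by coding and 6 by exon length, as its exons are mostly untranslated. Exons of BCL2L1, BAK1, BCL2L11 and MCL1 overlap those of other genes in GENCODE 29, so their levels are uncertain to that extent. The libraries were made by exome capture, and the part of the capture in the ranks between genes was not tested.

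The genes with a pattern most like HRK over the 12 libraries of the H69 table, by the root mean square difference of centred log2 CPM, were BECN1P1 (0.304), PRODH (0.305), KCNA3 (0.391), SLC6A17 (0.434) and DEPTOR (0.434), where HRK itself had an SD of 1.71. PRODH, the gene of proline dehydrogenase, averaged 0.326 CPM in PD-L1 high cells, 3.20 in PD-L1 low cells, 0.400 in H69M and 4.40 in H69. SLC6A17, a transporter gene of neurons, averaged 1.27, 11.8, 2.32 and 36.5 CPM in the same order. BECN1P1 is named as a pseudogene of BECN1 and could share its reads. Those most like BCL2 (own SD 0.676) were SESN1 (0.0873), RASEF (0.0910), FHDC1 (0.109), HR (0.113) and LFNG (0.114). RASEF averaged 33.3 CPM in PD-L1 high cells, 57.1 in PD-L1 low cells, 49.2 in H69M and 127 in H69, close to the values of BCL2 in level as well. SESN1, a stress-response gene of the DNA damage list, averaged 24.2, 36.8, 28.7 and 76.0 CPM in the same order.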

How the data were processed

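RNA-seq counts per gene were deposited by the authors in 3 tables: H69 with unsorted and PD-L1-sorted H69M, sorted H69EZ, and mouse. Per the labels' protocols, libraries were made by exome capture, and STAR 2.6.1 with builds hg19 and mm10 is named per the submitters' processing notes. How reads were counted over genes, and whether by strand, is not given in the sources used here. Numbers in the mouse column names do not match the sample titles, so these columns were assigned by group, with columns named RPPM taken as RPP-A.

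Each table was fitted in R 4.3.3 with edgeR 4.0.16 (TMM, filterByExpr at a minimum count of 10, quasi-likelihood F-test, all groups in 1 fit, two-sided, Benjamini-Hochberg over all genes tested, threshold 0.05), which left 15445, 14819 and 14032 genes. Common biological coefficients of variation were 0.0540, 0.0450 and 0.157. SE values are the absolute log2 fold change divided by the root of F. The fit was tested on simulated data. Figures and sequence searches used Python 3.11.15, pandas 2.3.3 and matplotlib 3.10.9.

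The members, 7 lists of 69 pathway genes and markers were chosen with earlier results of these data known. Named were all members, up to 3 called genes per list and comparison with the largest differences at a mean of at least 1 CPM and groups apart, KCNIP3, REST, DDIT3 and ATF4, the 5 nearest patterns to HRK and to BCL2, and markers. Other listed genes (ATF3, CASP8, APAF1, BMF, BCL2L12, HUWE1 and Usp9x where outside that rule) were added after their values were seen. Another listed regulator under the same rule is not reported here.

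Same-numbered libraries of different groups did not deviate together (r from -0.164 to 0.0946 over 18 pairs in the H69 table, 0.0379 in H69EZ), so the numbers were not taken as pairs. Alternatives were the replicate block, the DESeq2 1.42.0 size factors and test, a minimum count of 100 or no filter, limma-voom (limma 3.58.1), only the groups compared, a 2-fold minimum, each library left out in turn and, added after seeing the data, library totals without TMM. The bound for Hrk uses a floor of 3 counts over a group and covers counting error only.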

Additional observations from a re-analysis of the deposited data

Results flagged for a closer look

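For 5 of the 10 members the direction of the difference between MHC class I high and low cells was not the same in every line, with each library of one group on one side of the other group. The difference between lines was not tested.

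BCL2 was lower in H69M than in H69 (log2 difference -1.44). It was also lower in PD-L1 high than in PD-L1 low cells (-0.64) and in HLA high than in HLA low cells (-0.55). In RPP-A it was higher than in RPP (0.20), which was not called and changed sign with library totals. BCL2L1 was -0.24 in H69M, -0.22 in PD-L1 high cells and -1.28 in RPP-A, but 0.16 in HLA high cells. BAX was higher in PD-L1 high cells (0.22) and HLA high cells (0.27), and lower in H69M (-0.52) and RPP-A (-0.16, which was not called). BAK1 was higher in PD-L1 high cells (0.36) and RPP-A (2.63), and lower in HLA high cells (-0.81). BID was -0.30 in H69M, -0.22 in PD-L1 high cells and -0.42 in HLA high cells, and 2.31 in RPP-A.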

How the results depend on the processing

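Of 849 recomputed differences of members, 802 kept their side of the threshold, 43 lost the call and 4 gained one. The 802 include differences that were not called and changed sign. With a 2-fold minimum, called members numbered 4 in H69M minus H69 (9 without it), 2 in the PD-L1 sort (10), 1 in PD-L1 low minus H69 (9), 4 in PD-L1 high minus H69 (9), 2 in the HLA sort (9) and 6 in RPP-A minus RPP (7). Called pathway genes then numbered 19 (50), 23 (50), 21 (50), 22 (53) and 27 (58) in the same order, and 20 (47) in RPP-A minus RPP. With each library left out in turn, called members ranged from 9 to 10 in H69M minus H69, stayed at 10 in the PD-L1 sort and at 9 in PD-L1 low and PD-L1 high minus H69, and ranged from 7 to 9 in the HLA sort and 7 to 8 in RPP-A minus RPP. Pathway genes ranged from 47 to 49, 48 to 50, 48 to 50, 51 to 53, 49 to 59 and 42 to 51.

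Beside the 2-fold minimum, BID in the PD-L1 sort lost its call with DESeq2 size factors and with the DESeq2 test, BCL2L1 in the HLA sort without HLA low replicate 1 or 2, and BAX there without HLA low replicate 2. BAK1 in H69M minus H69 gained a call without H69 replicate 1. Library totals moved the median log2 difference of all genes to -0.14 in the PD-L1 sort, 0.12 in PD-L1 low minus H69, -0.15 in the HLA sort and -0.40 in RPP-A minus RPP, and Btrc in RPP-A then reversed to -0.13 (0.24 with TMM). Bcl2l11 in mouse and BCL2L11 in the HLA sort, neither called, also changed sign (to -0.12 each). The replicate block, where numbers do not pair the samples, gave 10915 calls over all genes in H69M minus H69 (11196 without it) and moved no count of members called. No paired analysis was possible for the mouse lines because the numbers in their column names do not match those of the sample titles. HRK in H69M and its PD-L1 high fraction is limited by depth, at 4 to 16 counts a library.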
